A study of Rattus norvegicus with 9 samples.

Results

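Superoxide dismutase 1 (Sod1, ENSRNOG00000002115), superoxide dismutase 2 (Sod2, ENSRNOG00000019048) and catalase (Cat, ENSRNOG00000008364) were chosen by identifier, with no threshold on their values but with earlier results of these data known, and all 3 were found among the 23426 features listed for each library. They were measured by RNA sequencing in PC12 cells, a line from a rat pheochromocytoma that is widely used as a neuron model, and the labels describe the cells of every group as highly differentiated. The 3 groups held 3 libraries each. Control cells carry no other treatment label, although the deprivation protocol is entered alike for all samples. The OGD/R cells (oxygen glucose deprivation followed by reperfusion) spent 4 h without glucose at 1% oxygen and then 6 h in normal medium with oxygen. The third group was transfected with miR-483-5p mimics 48 h before the same OGD/R. The sample labels name transfection only for the third group. Negative-control mimics were used in PC12 cells in the study, but the labels do not tie them to these OGD/R libraries, so here the mimics and the transfection itself cannot be told apart. PC12 is 1 cell line, and nothing in the labels says that replicates came from separate cultures, so the p-values measure the spread between these libraries, which may be technical. The symbols were given with the identifiers and were not checked against a gene table, since 0 of the 23426 identifiers matched the RefSeq table used here. For the same reason the markers of the labelled chromaffin cell type were not examined.

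The 3 enzymes act in sequence on reactive oxygen. Superoxide dismutases turn superoxide, which leaks from the respiratory chain, into hydrogen peroxide and oxygen. Sod1 is the abundant copper and zinc enzyme of the cytosol, and Sod2 is the manganese enzyme of the mitochondrial matrix. Catalase is a heme enzyme, held mostly in peroxisomes, that splits hydrogen peroxide into water and oxygen. Return of oxygen after ischemia is a classical setting for superoxide production, and superoxide dismutase activity was among the assays the study ran on PC12 cultures. The RNA values described here give transcript levels and say nothing of enzyme activity.

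The mature miRNA that the mimics imitate is shown first because it defines the third group. Its seed (bases 2 to 8) is in capitals, and the sequence is that of RefSeq on GRCr8, chr1:207247903-207247924, minus strand. The exact sequence of the transfected mimic is not given in the sources used here.
rno-miR-483-5p: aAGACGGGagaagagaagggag

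The 250 bases before the start of each gene are shown as a description of the 3 genes. Whether these stretches bear on the changes in RNA was not tested. All 3 symbols matched the RefSeq promoter table (GRCr8). The stretches are chr11:42942573-42942822 (plus strand) for Sod1, chr1:50050169-50050418 (minus strand) for Sod2 and chr3:110329527-110329776 (minus strand) for Cat. Each is written 5′ to 3′ along its gene, and capitals mark matches, on either strand, to the TATA box TATAAA, the CCAAT box CCAAT, the GC box GGGCGG, the antioxidant response element core TGACNNNGC, the hypoxia response element core ACGTG or the forkhead core TGTTTAC.
Sod1: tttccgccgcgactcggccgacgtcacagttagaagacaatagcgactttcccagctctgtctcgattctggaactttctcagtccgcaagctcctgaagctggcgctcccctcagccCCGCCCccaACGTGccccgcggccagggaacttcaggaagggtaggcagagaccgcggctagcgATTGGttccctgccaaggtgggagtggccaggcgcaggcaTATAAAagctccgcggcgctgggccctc
Sod2: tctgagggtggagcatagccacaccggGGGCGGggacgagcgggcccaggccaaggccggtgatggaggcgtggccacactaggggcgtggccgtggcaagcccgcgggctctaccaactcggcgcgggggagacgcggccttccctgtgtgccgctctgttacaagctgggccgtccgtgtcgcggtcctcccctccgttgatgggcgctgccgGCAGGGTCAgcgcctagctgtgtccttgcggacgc
Cat: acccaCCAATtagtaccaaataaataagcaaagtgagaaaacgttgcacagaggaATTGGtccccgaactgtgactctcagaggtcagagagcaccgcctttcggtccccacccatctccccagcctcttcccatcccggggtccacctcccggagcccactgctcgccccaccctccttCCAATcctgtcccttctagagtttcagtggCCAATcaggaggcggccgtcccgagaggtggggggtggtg

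No matches overlapped each other. The Cat stretch held 4 matches to the CCAAT box, the last beginning 40 bases before the start, and none of the other motifs. A CCAAT box was present in 34.0% of the 33469 promoters of the same length, and 4 or more in 0.56%. The Sod1 stretch held 1 match each to the TATA box (12.9% of promoters), the CCAAT box, the GC box (30.5%) and the hypoxia response element core (16.6%), with the TATA box beginning 28 bases before the start. The Sod2 stretch held 1 GC box and, 35 bases before the start, 1 antioxidant response element core on the opposite strand (10.1% of promoters). The forkhead core (3.2% of promoters) was in none of the 3. Guanine and cytosine made up 63.2% of the Sod1 stretch, 71.6% of the Sod2 stretch and 58.8% of the Cat stretch, against a median of 51.2% over all promoters. A match of letters is a description of the sequence and not a site of binding.

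The deposited values are FPKM, fragments scaled to transcript length and to the sequenced total, which are per length and so allow levels of different genes to be set side by side. Control libraries had 15792 to 16017 features above 0, OGD/R libraries 16506 to 17149 and mimic libraries 16820 to 17242, and total depth is unknown. The upper quartile of the values above 0 was 28.0 to 28.8 FPKM in control but 22.7 to 24.9 FPKM in the OGD/R libraries and 22.1 to 24.1 FPKM in the mimic libraries, so the groups differed in the shape of their distributions as well as in single genes. Across the 11798 features averaging 1 FPKM or more, the correlation of OGD/R replicate 3 was higher with mimic replicates 1 and 2 (0.984 for each) than with OGD/R replicates 1 and 2 (0.978 and 0.968). Mimic replicate 3 was nearer to OGD/R replicate 1 (0.985) than to either other mimic library (0.982 and 0.981). Whether the labels of these 2 libraries were exchanged was not tested, and results are also given without them. In these bulk libraries, fewer cells of a kind and less RNA per cell cannot be told apart.

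Sod1 was by far the most abundant of the 3 transcripts. Its level was 938.66, 964.9 and 950.84 FPKM in the control libraries, 1135.29, 1026.59 and 1035.5 FPKM in the OGD/R libraries, and 1080.32, 1231.27 and 1132.62 FPKM in the mimic libraries. Every control library was below every other library, while the OGD/R and mimic libraries overlapped. In each library Sod1 ranked between 65th and 93rd from the top. The group means were 951.5 ± 13.1 FPKM for control, 1066 ± 60.4 FPKM for OGD/R and 1148 ± 76.7 FPKM for mimics (SD, n = 3).

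Sod2 stood far below Sod1 in every library. It was at 76.65, 77.78 and 75.32 FPKM in control, at 86.04, 66.23 and 79.44 FPKM in the OGD/R libraries, and at 78.48, 90.17 and 83.13 FPKM in those with mimics. The OGD/R libraries lay on both sides of the controls, with replicate 2 the lowest of all 9 libraries. The mimic libraries all lay above the controls, the lowest of them only just. Group means were 76.6 ± 1.23, 77.2 ± 10.1 and 83.9 ± 5.89 FPKM (SD, n = 3) in the same order. The coefficient of variation was 1.61% in control and 13.1% after OGD/R.

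Cat was the least abundant of the 3 and the one whose groups lay furthest apart as folds. It was at 28.25, 25.53 and 26.21 FPKM in control, at 41.16, 38.19 and 38.92 FPKM in the OGD/R libraries, and at 43.78, 45.4 and 41.76 FPKM in those with mimics. Both exposed groups lay clear of control. OGD/R and mimics were separate only as labelled: the lowest mimic library was replicate 3, just above OGD/R replicate 1, and the groups would overlap if the exposed libraries numbered 3 had each other's labels. The group means were 26.7 ± 1.42, 39.4 ± 1.55 and 43.6 ± 1.82 FPKM (SD, n = 3). Among the features above 0 in a library, Cat stood at percentile 73.0 to 74.7 in the control group, 82.7 to 84.2 in the OGD/R group and 84.4 to 86.3 in the mimic group. Its rank from the top moved from between 4055 and 4308 in control to between 2627 and 2867 after OGD/R and between 2338 and 2620 with mimics. A rank also depends on the other features. Sod2, with means of 76.6 FPKM in control and 77.2 FPKM after OGD/R, ranked from 1465 to 1529 and from 1257 to 1663 there. With mimics Sod2 ranked from 1185 to 1369.

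**Figure D1:**
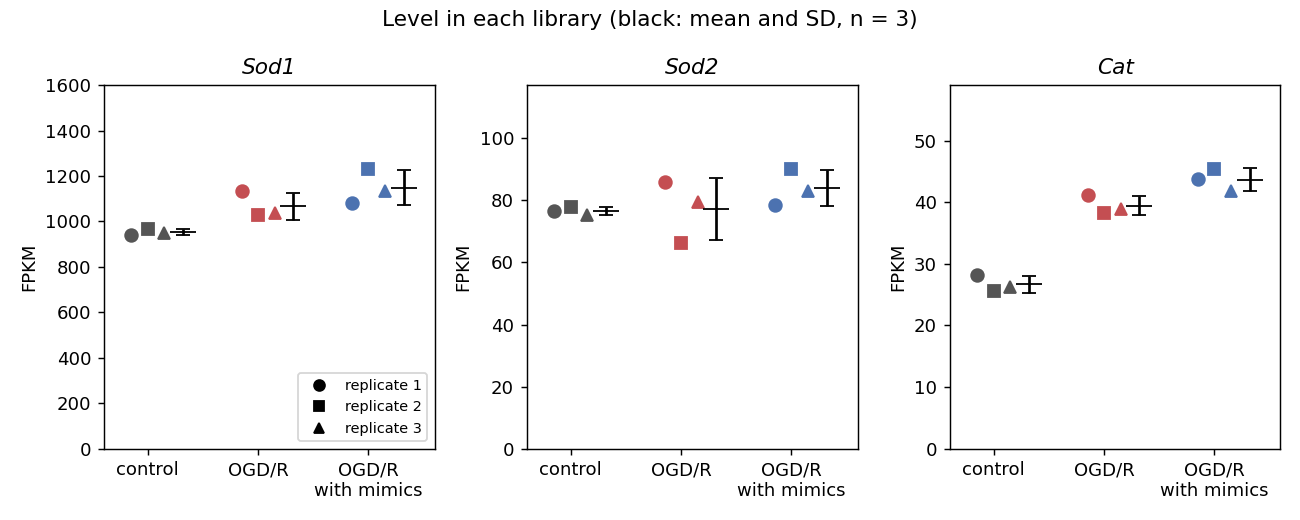
FPKM of Sod1, Sod2 and Cat (y axes, each from 0) in each library of the 3 groups (x axis), with symbols for the replicate number and the mean and SD (n = 3) in black. Cat lay at 25.53 to 28.25 FPKM in control and at 38.19 to 45.4 FPKM in the 6 other libraries, whereas the Sod2 libraries after OGD/R, at 66.23 to 86.04 FPKM, spanned the controls.

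The order of the replicates was partly the same for the 3 genes. After OGD/R, replicate 1 was the highest and replicate 2 the lowest library for all 3 genes. With mimics, replicate 2 was the highest for all 3. In control, replicate 2 was the highest for Sod1 and Sod2 and the lowest for Cat. The coefficient of variation of Cat stayed between 3.93% and 5.31% in the 3 groups, while that of Sod1 was 1.38% in control, 5.66% after OGD/R and 6.68% with mimics.

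The first comparison, OGD/R against control, asks how oxygen and glucose deprivation with return of oxygen changed each transcript. Cat, which removes hydrogen peroxide, rose 1.48-fold, with a 95% confidence interval of 1.34 to 1.63. Its log2 fold change on the log2(FPKM + 0.1) scale was 0.56 (standard error 0.061, adjusted p = 0.000111 by limma with Benjamini-Hochberg adjustment over 19394 features), and it was higher in 3 of 3 libraries. Sod1 was at 1.12 times its control level (95% interval 1.00 to 1.25, log2 fold change 0.16, standard error 0.069). It was higher in 3 of 3 libraries, but its adjusted p by limma was 0.0866 and it did not pass. It did pass when only features above a minimum mean entered the test (adjusted p = 0.0492 for a mean of 0.1 FPKM, 0.0411 for 1 FPKM), where 59.8% and 66.5% of the features tested passed. Sod2, the mitochondrial enzyme, was at 1.00 times its control level (95% interval 0.865 to 1.16, adjusted p = 1 by limma), and its libraries overlapped with the controls.

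Thus 1 of the 3 genes passed, upward, in a comparison where 46.0% of all features passed, 16.1% upward and 29.8% downward. Before adjustment the limma p of Sod1 was under 0.05 too, as was that of 51.8% of features. Separation of the groups was common too: 53.0% of features, Sod1 and Cat among them, had no overlap between OGD/R and control. None of the 3 genes reached the study's own criteria (a log2 ratio of 1 or more in size, together with p under 0.05 before adjustment), which 18.0% of features met. The 3 log2 fold changes had a median of 0.16, against -0.06 over all features tested. Over the 11798 features that averaged 1 FPKM or more the median log2 fold change was -0.23, and relative to it Cat stood 0.80 higher, Sod1 0.40 higher and Sod2 0.24 higher (log2). In the order of the log2 fold changes of these features, Cat lay at percentile 86.0, Sod1 at 72.2 and Sod2 at 64.3.

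The scaling between libraries set the size of these changes, and for Sod1 the call. Of the features that passed between OGD/R and control, 35.1% were higher in the deposited FPKM, 45.3% once quantiles were normalized and 53.4% with the upper quartiles made equal. The upper quartile was taken over values above 0, of which exposed libraries had more, so the number of features detected enters this scaling. With equal upper quartiles, which moved the median log2 fold change from -0.23 to 0.0085, the log2 fold change was 0.41 for Sod1 (adjusted p = 0.00676 by limma), 0.25 for Sod2 (adjusted p = 0.106) and 0.81 for Cat (adjusted p = 6.14e-05), and 43.0% of all features passed. After quantile normalization it was 0.16 for Sod1 (adjusted p = 0.115), whose OGD/R replicate 3 then lay below control replicate 3, so that the groups overlapped. It was 0.09 for Sod2 (adjusted p = 0.506) and 0.72 for Cat (adjusted p = 4.64e-05). The value for Sod2 rested on single libraries: its log2 fold change was -0.078 without OGD/R replicate 1, -0.021 without OGD/R replicate 3, -0.0080 without control replicate 3 and 0.11 without OGD/R replicate 2. Without OGD/R replicate 3 and mimic replicate 3 together, Cat was at a log2 fold change of 0.57 (adjusted p = 0.000676 by limma) and Sod1 at 0.18 (adjusted p = 0.114).

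**Figure D2:**
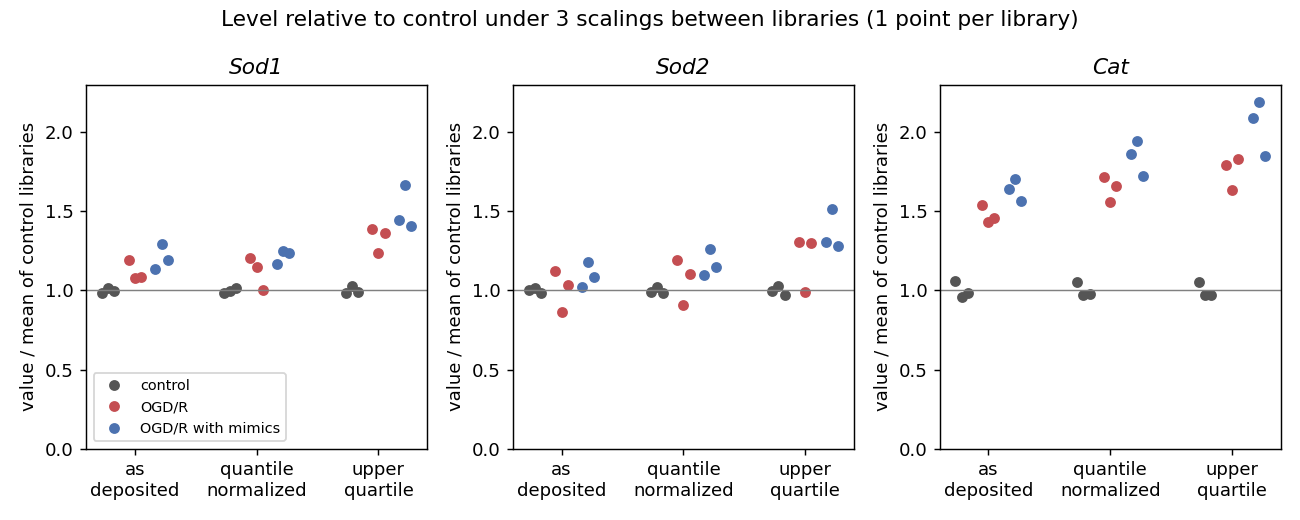
Value of Sod1, Sod2 and Cat in each library divided by the mean of the 3 control libraries (y axis), for deposited FPKM, quantile-normalized values and values scaled to a common upper quartile (x axis), with 1 point per library coloured by group. Cat after OGD/R was above control under all 3 scalings (log2 fold change 0.56, 0.72 and 0.81), while Sod1 stood at 0.16, 0.16 and 0.41.

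The second comparison, OGD/R with mimics against OGD/R, asks what the mimics added, together with any effect of the transfection itself. No transcript of the 3 passed: the log2 fold change was 0.11 for Sod1 (95% interval -0.05 to 0.26, adjusted p = 0.821 by limma), 0.13 for Sod2 (-0.09 to 0.34, adjusted p = 0.821) and 0.15 for Cat (0.01 to 0.29, adjusted p = 0.726). Single libraries moved these values: over each library left out in turn the log2 fold change ran from 0.055 (without mimic replicate 2) to 0.15 (without OGD/R replicate 1) for Sod1 and from 0.019 (without OGD/R replicate 2) to 0.21 (without OGD/R replicate 1) for Sod2, against 0.12 to 0.18 for Cat. With equal upper quartiles it was 0.18 for Sod1, 0.20 for Sod2 and 0.22 for Cat, and none passed (adjusted p = 0.715, 0.739 and 0.660 by limma). As folds the values from deposited FPKM were 1.08, 1.09 and 1.11, and the intervals reached up to 1.20-fold for Sod1, 1.26-fold for Sod2 and 1.22-fold for Cat. The median of the 3 log2 fold changes was 0.13, against 0 over all features tested.

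The limma fit called 0 of the 19394 features in this comparison (0%) and 1333 at an unadjusted p under 0.05, which is 6.87%. Cat was among these 1333, with an unadjusted p of 0.0418. All 3 libraries labelled with mimics had more Cat than the 3 labelled OGD/R, and the 2 groups did not overlap, in either direction, for 8.41% of features. Without the libraries numbered 3, whose profiles resembled the other group, the log2 fold change was 0.10 for Sod1, 0.16 for Sod2 and 0.17 for Cat, with adjusted p = 0.546, 0.493 and 0.197 by limma. No gene of the 3 met the study's criteria, which 0.820% of features met.

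The third comparison set mimics with OGD/R against control and shares its control libraries with the first. Cat rose 1.64-fold (95% interval 1.48 to 1.80, log2 fold change 0.71, standard error 0.061, adjusted p = 2.86e-05 by limma) and Sod1 rose 1.20-fold (1.08 to 1.34, log2 fold change 0.27, standard error 0.069, adjusted p = 0.0102). Sod2 was at 1.09 times control (0.944 to 1.27), with adjusted p = 0.292 by limma. Its log2 fold change of 0.13 was 0.077 without mimic replicate 2 and 0.22 after quantile normalization (adjusted p = 0.0913 by limma). So 2 of the 3 genes passed, both upward, where 49.6% of all features passed, 18.6% upward and 31.0% downward. The same 2 genes had an unadjusted p under 0.05, as did 55.0% of features. The mimic and control libraries did not overlap for any of the 3 genes, nor for 57.3% of all features. In deposited FPKM no gene of the 3 met the study's criteria (21.2% of features).

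The median of the 3 log2 fold changes against control was 0.27 with mimics, beside -0.05 over all features tested. With upper-quartile scaling Sod2 passed as well, at a log2 fold change of 0.45 (adjusted p = 0.00949 by limma), Sod1 was at 0.59 (adjusted p = 0.000848) and Cat at 1.03 (adjusted p = 1.49e-05), so that all 3 genes passed where 47.4% of all features did. At that value Cat also met the study's criteria (unadjusted p = 4.14e-07 by limma). The share of all features meeting them under upper-quartile scaling was not counted. The median over the 11798 more abundant features went from -0.26 to 0.05 (log2) with that scaling, and the share of passing features that were higher from 37.5% to 58.4% (44.7% after quantile normalization). Without the 2 exposed libraries numbered 3, the log2 fold change was 0.28 for Sod1 (adjusted p = 0.0253 by limma), 0.14 for Sod2 (adjusted p = 0.373) and 0.74 for Cat (adjusted p = 0.000182). Sod1 passed after OGD/R with mimics and not after OGD/R, but the difference between those 2 groups, tested directly in the second comparison, did not pass.

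**Figure D3:**
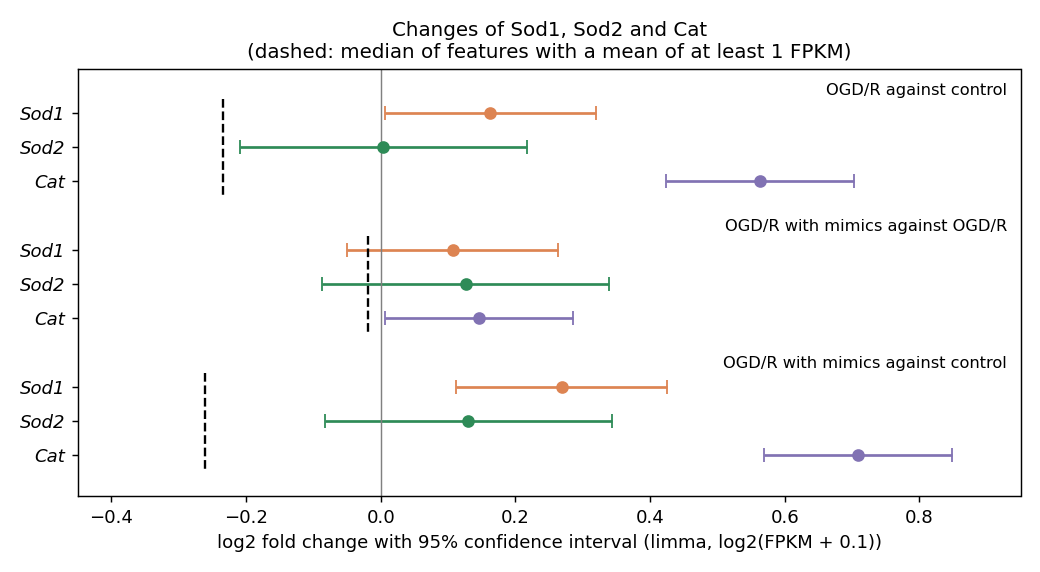
Log2 fold change with its 95% confidence interval (x axis, limma on log2(FPKM + 0.1)) for Sod1, Sod2 and Cat in the 3 comparisons (y axis). The dashed line is the median of the 11798 features averaging 1 FPKM or more, at -0.23, -0.02 and -0.26 from top to bottom; the Cat intervals in both comparisons with control lie clear of 0 and of that line.

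Ratios between the genes within a library do not depend on a scaling by 1 factor per library, and they test whether the 3 transcripts moved apart. Quantile normalization is not such a scaling and does change them, so each ratio is also given after it, an alternative chosen after the data were seen. Sod1 exceeded Cat by 33.2, 37.8 and 36.3 times in the control libraries, by 27.6, 26.9 and 26.6 times after OGD/R, and by 24.7, 27.1 and 27.1 times with mimics. All 6 exposed libraries were below all controls. Against the 3 controls, the log2 ratio of Cat over Sod1 was 0.42 higher in the 6 libraries exposed to OGD/R, a 1.34-fold shift (two-sided exact permutation test, p = 0.0238, adjusted over 3 ratios p = 0.0238). These 6 libraries pool 3 with OGD/R alone and 3 that were also transfected with mimics, so they are not 1 condition. After quantile normalization the log2 difference was 0.58 (exact permutation p = 0.0238), again without overlap. The share of other gene pairs that separate in this way was not counted. Separation from control was common among single features: 53.0% did not overlap with it after OGD/R, and 57.3% did not with mimics. The separation of this ratio is therefore not shown to be particular to these genes.

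Sod2 exceeded Cat by 2.71, 3.05 and 2.87 times in control, by 2.09, 1.73 and 2.04 times after OGD/R and by 1.79, 1.99 and 1.99 times with mimics. Again no exposed library reached the control range. The log2 ratio of Cat over Sod2 was 0.57 higher in the exposed libraries, a 1.49-fold shift (exact permutation p = 0.0238, adjusted p = 0.0238). It was 0.65 higher after quantile normalization (exact permutation p = 0.0238), with no overlap. For this pair too, the share of other gene pairs that separate was not counted.

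The ratio between the dismutases differed by less, and its difference depended on the normalization. Sod1 exceeded Sod2 by 12.2, 12.4 and 12.6 times in control, by 13.2, 15.5 and 13.0 times after OGD/R and by 13.8, 13.7 and 13.6 times with mimics. The control values lay below all others, and OGD/R replicate 2, the library with the lowest Sod2, stood apart from its group. The ratio of Sod2 over Sod1 in the exposed libraries was 0.902 times that in control (log2 difference -0.15, exact permutation p = 0.0238, adjusted p = 0.0238). After quantile normalization the log2 difference was -0.065 and did not pass (exact permutation p = 0.595). Sod1 then exceeded Sod2 by 12.8, 12.6 and 13.3 times in control and by 13.0, 16.3 and 11.7 times after OGD/R, so the groups overlapped. The smallest two-sided p that 3 against 6 libraries allow is 0.0238, and the 3 ratios are not independent, since each follows from the other two. For none of the 3 ratios was a share over other gene pairs counted, so whether such a separation is unusual was not tested. Without the 2 exposed libraries numbered 3, the log2 differences were 0.43 for Cat over Sod1, 0.60 for Cat over Sod2 and -0.17 for Sod2 over Sod1 (exact permutation p = 0.0571 for each, the smallest that 3 against 4 libraries allow). With 3 libraries on each side the test cannot go below 0.10, and each ratio had that p between OGD/R and control.

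Between mimics and OGD/R the ratios were close. The log2 ratio of Cat over Sod1 was -4.72 ± 0.079 with mimics and -4.76 ± 0.027 after OGD/R (SD, n = 3, exact permutation p = 0.7). That of Cat over Sod2 was -0.94 ± 0.086 and -0.96 ± 0.15 (exact permutation p = 0.8, n = 3). That of Sod2 over Sod1 was -3.77 ± 0.0078 and -3.79 ± 0.14 (exact permutation p = 1, n = 3). Each ratio overlapped between the 2 groups. The difference in log2 ratio was 0.040 for Cat over Sod1, which was above the SD of the OGD/R libraries and below that of the mimic libraries, and 0.019 for Sod2 over Sod1, where the reverse held. It was 0.021 for Cat over Sod2, below both SDs. With 3 libraries a group the exact test cannot go below 0.10, so it could not have called a shift.

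**Figure D4:**
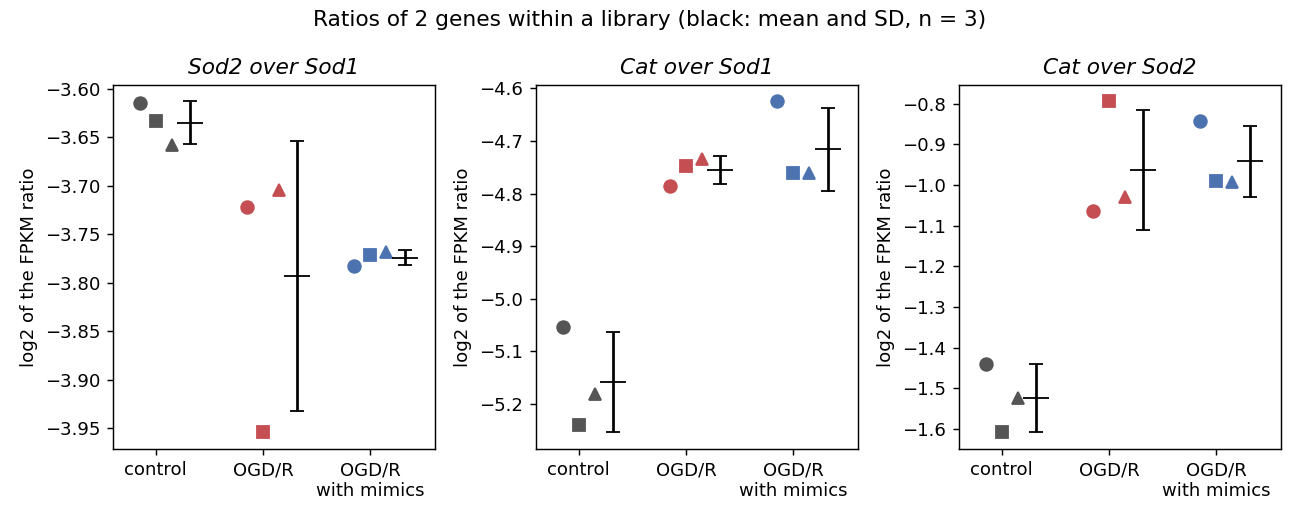
Log2 of the ratio of FPKM of 2 genes within a library (y axes, which do not start at 0) for Sod2 over Sod1, Cat over Sod1 and Cat over Sod2, by group (x axis), with symbols for the replicate number and the mean and SD (n = 3) in black. In these deposited values the 3 controls lie clear of the 6 exposed libraries in each panel, which for Sod2 over Sod1 did not hold after quantile normalization. The means differ by 0.42 for Cat over Sod1 and 0.57 for Cat over Sod2.

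Features whose log2 values followed each gene most closely over the 9 libraries were looked for among the same 11798 features. Pearson's r is given as a measure of likeness only, since the libraries fall into control and exposed sets. The nearest to Cat was ENSRNOG00000000461 (r = 0.993, n = 9), which ran from 55.71 to 62.63 FPKM in control, from 139.44 to 176.0 FPKM in the OGD/R libraries and from 164.38 to 199.29 FPKM in the mimic libraries. The nearest to Sod1 was ENSRNOG00000001339 (r = 0.980, n = 9), at 72.59 to 78.04, 86.13 to 96.71 and 91.51 to 110.52 FPKM in the same order. The nearest to Sod2 was ENSRNOG00000036699 (r = 0.965, n = 9), at 6.29 to 7.17, 5.11 to 7.52 and 6.95 to 9.07 FPKM. The number of features with r of at least 0.9 was 1348 for Cat (11.4%), 115 for Sod1 (0.975%) and 7 for Sod2 (0.0593%), so the course of Cat was shared by many features and that of Sod2 by few. The identifiers of these features were not paired with names here.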

How the data were processed

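RNA was sequenced from 9 libraries. The authors discarded low-quality, adapter and poly-N reads, and their methods describe FPKM from RSEM. FPKM values, given to 2 decimals, were deposited for each library. The submitters' processing notes also name Bowtie2 (version 2.3.3.1) and Cufflinks (version 2.2.1). Which tool produced the deposited values was not established here. The genome build is not given in the sources used here. The labels mention 2 library kits but not which sample each belongs to, so a kit difference was not tested. One culture detail is not reported here.

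Groups and replicate numbers came from the labels. FPKM values are not counts, so edgeR, which the study used, was replaced by limma (version 3.58.1, R version 4.3.3): lmFit and eBayes (trend allowed) on log2(FPKM + 0.1), all 9 libraries in 1 fit with 6 residual degrees of freedom, two-sided, with Benjamini-Hochberg adjustment over the 19394 features that were not at 0 throughout and a threshold of 0.05. The fit was tested on simulated data. Ratios within a library used log2 FPKM without a pseudocount and exact permutation tests (scipy version 1.17.1). Counts and depth were not recovered from the FPKM values. The limma standard errors rest on the spread between libraries, moderated across features.

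The genes, though picked by identifier, and the lists were chosen with earlier results of these data known. Named features were the 3 genes and, for each, the feature of highest Pearson correlation. Lists by symbol (extracellular dismutase, metal supply to the dismutases, peroxide removal, peroxisome, mitochondrial matrix, cell type markers) were not analysed here, because no identifier matched a symbol. Alternatives were pseudocounts of 1 and 0.01, filters on mean FPKM of 0.1 and 1, normalization to equal quantiles or upper quartiles, fits of 2 groups, a replicate block and leaving out libraries.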

Additional observations from a re-analysis of the deposited data

How the results depend on the processing

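For the changes below the cause was not tested. The rise of Cat against control passed under every alternative run, after OGD/R and with mimics. Between OGD/R and control, 1 of the 3 genes passed, and 2 passed when features averaging under 0.1 FPKM or under 1 FPKM were dropped and with upper-quartile scaling, because Sod1 crossed the threshold: its log2 fold change was 0.16, 0.16 and 0.41 there (adjusted p = 0.0492, 0.0411 and 0.00676 by limma). Under these 3 settings 59.8%, 66.5% and 43.0% of all features tested passed, against 46.0% without them. The filters tested fewer features, and the refit also gave Sod1 a standard error of 0.063 and 0.062 in place of 0.069. Sod2 between mimics with OGD/R and control passed with upper-quartile scaling, at 0.45, where 47.4% of all features passed. The log2 fold change of Sod2 between OGD/R and control turned to -0.021 without both exposed libraries numbered 3.

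Leaving out each library in turn gave log2 fold changes of -0.078 to 0.11 for Sod2 between OGD/R and control (0.0039 with all), and 0.12 to 0.19 for Sod1 and 0.53 to 0.61 for Cat. It gave differences in log2 ratio between exposed and control libraries of -0.16 to -0.11 for Sod2 over Sod1, 0.38 to 0.47 for Cat over Sod1 and 0.53 to 0.61 for Cat over Sod2. Between mimics and OGD/R, the log2 fold change ran from 0.055 to 0.15 for Sod1, from 0.019 to 0.21 for Sod2 and from 0.12 to 0.18 for Cat. Between mimics and control it ran from 0.22 to 0.31 for Sod1, from 0.077 to 0.18 for Sod2 and from 0.68 to 0.75 for Cat. With 2 control libraries the smallest two-sided p was 0.0714. Without both exposed libraries numbered 3, the differences in log2 ratio were -0.17, 0.43 and 0.60 (exact permutation p = 0.0571, the smallest possible), and with only the 3 OGD/R libraries -0.16, 0.40 and 0.56 (exact permutation p = 0.1, the smallest possible).

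After quantile normalization, chosen after the data were seen, the difference in log2 ratio was -0.065 for Sod2 over Sod1 (exact permutation p = 0.595), 0.58 for Cat over Sod1 and 0.65 for Cat over Sod2 (exact permutation p = 0.0238 for both).

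Replicate numbers marked no shared culture in the labels. Deviations of same-numbered OGD/R and mimic libraries correlated at -0.17, -0.26 and -0.47, and in 5 of 18 cases a library correlated best with its own number in another group, so the numbers were not used as pairs. With the replicate block, 8147 features passed between OGD/R and control (8913 without it), 8030 of them in both fits, 0 passed between mimics and OGD/R in either, and 8915 passed between mimics and control (9622 without it). The block changed no call of the 3 genes: for Cat the log2 fold change after OGD/R was 0.56 (adjusted p = 0.000753 by limma).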
